A study of Mus musculus with 5 samples.

Results

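The cell cycle genes described here are 39 of the 32285 genes counted in single-cell libraries of mouse tumours, 16 of S phase and 23 of G2 and mitosis (G2/M). They were taken by gene symbol, without regard to any measured value, and all 39 were found. The study grew flank tumours in mice from the lung cancer line LLC (Lewis Lung Carcinoma), sorted CD45-positive, PI-negative cells from them and sequenced these with a 10x Genomics 3' kit. In the JAG2KO group (2 libraries) the injected cells carried a guide RNA against Jag2, a ligand of Notch receptors, and in the Scramble group (3 libraries) a scrambled guide. The edit is in the injected cells and not in the host. The labels give no mouse strain, age, time or number of clones, and do not say that each library is a separate animal, so p-values measure the spread between libraries, which may be technical.

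A dividing cell copies its DNA in S phase and separates the copies in mitosis. Genes of S phase are switched on largely by E2F factors, and genes of G2/M largely by MuvB with B-Myb and FoxM1. In resting cells the DREAM complex, which also holds MuvB, represses cell cycle genes. MuvB binds CHR elements in promoters of G2/M genes, and CCAAT boxes there are bound by NF-Y. In tumours, tissue macrophages and lymphocytes can divide in place, whereas mature neutrophils have left the cell cycle.

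The promoters of 4 members show these elements. Each sequence holds the 250 bases before the transcription start in the RefSeq table of build GRCm38.p6, read 5′ to 3′ on the strand of the gene. Capitals mark matches on either strand, to the E2F forms TTTGGCGC, TTTCCCGC, TTTCGCGC and TTTGCCGC in the S phase genes and to the CHR letters TTTGAA and the CCAAT box in the G2/M genes. Capital runs in Mcm6 and Mcm5 hold overlapping matches.
Mcm6, replicative helicase subunit, chr1:128359706-128359955, minus strand: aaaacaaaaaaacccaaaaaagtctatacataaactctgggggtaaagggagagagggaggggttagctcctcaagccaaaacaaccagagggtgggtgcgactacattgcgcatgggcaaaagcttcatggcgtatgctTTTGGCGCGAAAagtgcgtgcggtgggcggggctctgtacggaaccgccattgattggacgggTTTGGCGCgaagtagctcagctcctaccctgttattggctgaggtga
Mcm5, replicative helicase subunit, chr8:75109259-75109508, plus strand: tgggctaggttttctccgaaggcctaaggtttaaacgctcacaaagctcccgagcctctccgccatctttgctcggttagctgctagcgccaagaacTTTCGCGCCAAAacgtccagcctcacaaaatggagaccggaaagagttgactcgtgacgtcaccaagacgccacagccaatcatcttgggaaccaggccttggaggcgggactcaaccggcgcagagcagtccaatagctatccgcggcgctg
Mki67, coat protein of mitotic chromosomes, chr7:135716380-135716629, minus strand: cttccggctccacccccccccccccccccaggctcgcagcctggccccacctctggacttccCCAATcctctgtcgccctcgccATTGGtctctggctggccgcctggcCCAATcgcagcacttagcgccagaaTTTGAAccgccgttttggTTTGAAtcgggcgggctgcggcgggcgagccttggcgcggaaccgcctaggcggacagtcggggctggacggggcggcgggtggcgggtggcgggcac
Kif11, motor of the bipolar spindle, chr19:37376132-37376381, plus strand: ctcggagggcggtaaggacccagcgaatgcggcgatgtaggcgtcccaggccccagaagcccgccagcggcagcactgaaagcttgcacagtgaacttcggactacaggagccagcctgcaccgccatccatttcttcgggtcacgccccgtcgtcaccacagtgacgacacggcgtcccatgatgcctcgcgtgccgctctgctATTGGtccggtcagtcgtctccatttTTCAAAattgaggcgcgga

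The table holds a promoter window of 300 bases for 34 of the 39 members, 14 of S phase and 20 of G2/M. The letters TTTGAA were found in 15 of the 20 G2/M windows and in 1 of the 14 S phase windows, that of Mcm2, against 17.9% of all 32851 windows in the table. An E2F form was found in 7 of the 14 S phase windows (Mcm3, Mcm5, Mcm6, Mcm7, Cdc6, Hells and Uhrf1) and in 1 of the 20 G2/M windows, that of Cdk1, against 2.26% of all windows. CCAAT was found in 17 G2/M and 9 S phase windows, against 37.4% of all windows. These matches are letters in a window and were not measured as binding.

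The 5 libraries held 10262 to 21854 barcodes and 84788907 to 111680641 UMIs (unique molecular identifiers, each standing for a captured RNA molecule). After the filters and the removal of likely doublets, 7563 to 17791 cells were kept. JAG2KO 2 stood apart, with a median of 2077 UMIs per kept cell against 7558 to 8420 in the other 4 libraries. Pairs of libraries shared 26 to 74 barcodes. Cells were assigned to classes by counting marker genes with a UMI, with thresholds set with the data in view. Monocytes and macrophages made up 76.8% and 71.5% of kept cells in the JAG2KO libraries and 79.7%, 77.4% and 76.2% in the Scramble libraries. A small class was gated on at least 5 UMIs of Rhox5, a homeobox gene, and had 133 and 95 cells in the JAG2KO libraries and 51, 58 and 56 in the Scramble libraries. Although the sort was for CD45, its gene Ptprc stood at 12.0 and 13.7 CPM (UMIs scaled to a common total per class and library) in these cells in JAG2KO libraries and 11.5, 11.2 and 8.18 CPM in Scramble libraries, against 452 to 562 CPM in monocytes and macrophages. They are called Rhox5-positive cells here. Jag2 had 1 and 0 UMIs in the Rhox5-positive cells of the JAG2KO libraries and 0, 3 and 3 in those of the Scramble libraries, and a 3' tag does not show an edit elsewhere in the gene.

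**Figure D1:**
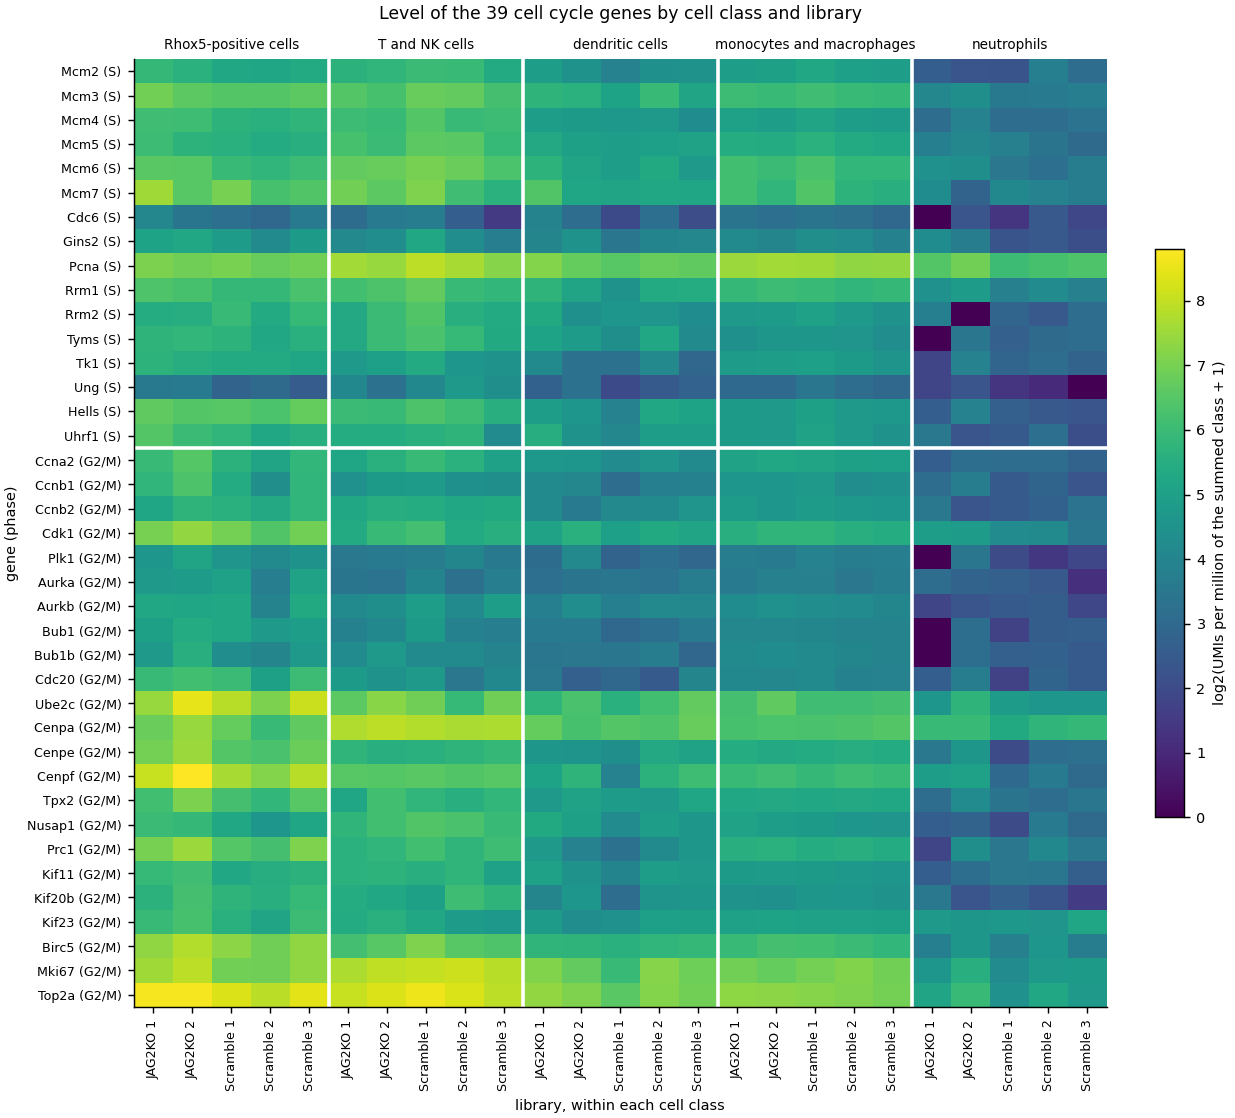
Level of each of the 39 genes (rows, S phase above the white line, G2/M below it) in each library (columns, grouped by cell class), as log2 of CPM plus 1. Rhox5-positive cells and T and NK cells are bright, and neutrophils are dark in all 5 libraries.

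The genes were first compared between cell types, with UMIs summed per class and library. T and NK cells had more of the S phase and chromosome genes than monocytes and macrophages. By edgeR's quasi-likelihood test with the library as a block, 21 of 39 members were higher in T and NK cells and 0 were lower at an adjusted p under 0.05 (Benjamini-Hochberg over all 14150 genes tested), where 26.4% of all genes were higher and 33.8% lower. In sums over a class, more dividing cells and more RNA per cell cannot be told apart. The median log2 fold over the members was 0.28, beside -0.10 over all genes tested.

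Of the licensing and fork genes, which load and run the replicative helicase, 6 of 9 were higher in T and NK cells. Mcm4, a helicase subunit, had 64.9 and 61.5 CPM in T and NK cells of the JAG2KO libraries and 86.6, 60.0 and 64.5 CPM in those of the Scramble libraries, against 31.7, 29.7, 34.8, 29.9 and 27.3 CPM in the monocytes and macrophages of the same libraries. The 2 classes did not overlap, and the log2 fold was 0.91 ± 0.10 (SE; adjusted p = 2.7e-07, edgeR). Pcna, the sliding clamp of DNA polymerase, was not called, with a log2 fold of -0.10 ± 0.10 (adjusted p = 0.38, edgeR). All 3 repair and chromatin copying genes were higher, among them Hells, a chromatin remodeller, at 1.01 ± 0.11 (adjusted p = 1.5e-07, edgeR). Of the nucleotide supply genes 2 of 4 were higher, among them Tyms, thymidylate synthase, at 1.07 ± 0.13 (adjusted p = 3.7e-07, edgeR).

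Among G2/M genes 10 of 23 were higher in T and NK cells. Of the cyclins and kinases 1 of 9 was higher, Ccnb2, a mitotic cyclin, at 0.45 ± 0.12 (adjusted p = 0.0040, edgeR). Both chromosome structure genes were higher, Mki67 at 0.80 ± 0.09 and Top2a, a topoisomerase that untangles DNA, at 0.86 ± 0.10 (adjusted p = 2.1e-07 and 1.6e-07, edgeR). Cenpa, the histone H3 variant of centromeres, had 217 and 245 CPM in T and NK cells of the JAG2KO libraries and 223, 204 and 210 CPM in those of the Scramble libraries, against 75.0, 78.2, 76.1, 79.9 and 86.8 CPM in monocytes and macrophages. Its log2 fold was 1.27 ± 0.09 (adjusted p = 3.7e-10, edgeR). Nusap1, which bundles spindle microtubules, had a log2 fold of 1.07 ± 0.13 (adjusted p = 6.1e-07, edgeR).

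Neutrophils had the lowest levels of the 5 classes for the summed genes. All 16 S phase genes and 21 of 23 G2/M genes were lower than in monocytes and macrophages and 0 members were higher, where 33.9% of the 13695 genes tested were lower and 24.5% higher. Mcm6 had 20.9 and 20.02 CPM in neutrophils of the JAG2KO libraries and 10.2, 8.4 and 11.9 CPM in those of the Scramble libraries, against 69.5, 63.2, 75.8, 56.6 and 55.4 CPM in monocytes and macrophages. Its log2 fold was -1.76 ± 0.19 (adjusted p = 1.6e-13, edgeR). Cenpa and Kif23, a motor of cytokinesis, were the 2 members not called, at 0.00 ± 0.13 and 0.37 ± 0.17 (adjusted p = 1.0 and 0.052, edgeR). Kif23 was called higher with DESeq2 (adjusted p = 0.024), with doublets kept, in thinned sums and without JAG2KO 2. In CPM, however, Kif23 was higher in neutrophils only in Scramble 3, at 36.4 against 31.4 CPM in monocytes and macrophages. In the other libraries it had 22.9 to 26.2 CPM in neutrophils, against 31.9 to 33.6 CPM. Cenpa had 39.8 to 60.2 CPM in neutrophils, against 75.0 to 86.8 CPM. These CPM values are not TMM scaled, unlike the edgeR folds, and the part of scaling in the signs was not tested. After all sums were thinned to the smallest, 20 members were lower and 1 was higher.

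Dendritic cells stood below monocytes and macrophages in 18 members and above them in 2, where 28.3% and 23.2% of the 14052 genes tested were lower and higher. This holds for the pooled class, which was mixed. In conventional type 1 dendritic cells G2/M genes summed to 1957 and 1289 CPM in the JAG2KO libraries. The Scramble libraries had 919, 1569 and 1708 CPM there. In migratory dendritic cells the sums ran from 203 to 344 CPM. Monocytes and macrophages had 942 to 1048 CPM. The members that were lower included Prc1, a cross-linker of the central spindle, at -1.14 ± 0.16, and Tk1, thymidine kinase, at -1.11 ± 0.18 (adjusted p = 5.5e-06 and 4.6e-05, edgeR). Tyms and Cenpa were the 2 that were higher, at 0.39 ± 0.15 and 0.28 ± 0.10 (adjusted p = 0.041 and 0.019, edgeR). Tyms was not called with DESeq2 (adjusted p = 0.064), without the filter on low counts, without JAG2KO 1 (log2 fold 0.22) or without Scramble 2, and Cenpa was not called without JAG2KO 1 (log2 fold 0.19) or without Scramble 3. These 3 comparisons share the monocytes and macrophages, so their results are not independent. The number of lower members was 11 with DESeq2 and 11 in thinned sums.

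Of 27 regulators of entry and exit, which are not among the 39, 12 were higher and 6 lower in T and NK cells than in monocytes and macrophages. Of all genes 26.4% were higher and 33.8% lower there. In dendritic cells 7 were higher and 9 lower, beside 23.2% and 28.3% of all genes. In neutrophils 9 were higher and 13 lower, beside 24.5% and 33.9%. Single genes follow. Ccnd2 was higher than in monocytes and macrophages in T and NK cells and in dendritic cells, at 2.94 ± 0.12 and 2.57 ± 0.10 (adjusted p = 6.5e-14 and 1.3e-13, edgeR). Ccnd1 had 25.4 and 24.9 CPM in T and NK cells of the JAG2KO libraries and 25.7, 18.9 and 25.1 CPM in those of the Scramble libraries, against 226 to 315 CPM in monocytes and macrophages (log2 fold -3.63 ± 0.12, adjusted p = 2.6e-15, edgeR). Cdkn1a had 1127 to 1596 CPM in neutrophils, against 414 to 562 CPM in monocytes and macrophages (log2 fold 2.25 ± 0.12, adjusted p = 2.3e-30, edgeR).

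**Figure D2:**
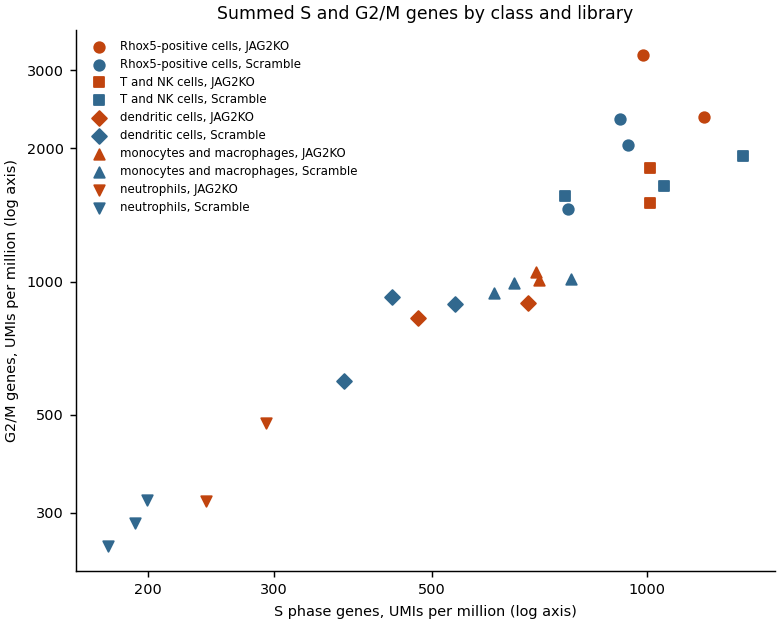
Summed CPM of the 16 S phase genes (x axis, log) and the 23 G2/M genes (y axis, log) for each class and library, JAG2KO in orange and Scramble in blue. Rhox5-positive cells span 1460 to 3253 CPM of G2/M genes and T and NK cells 1503 to 1919 CPM, and neutrophils lie lowest, between 252 and 479 CPM.

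The second question was how the genes differed between tumours of JAG2KO and Scramble cells. In Rhox5-positive cells 7 of 39 members rose in JAG2KO (2 of 16 S phase genes and 5 of 23 G2/M genes) and 0 fell. Of all 10365 genes tested there, 2.66% rose and 4.04% fell. The median log2 fold over the members was 0.53, beside -0.00 over all genes tested, and 37 of 39 folds were above 0. An unadjusted p under 0.05 was found for 24 members, beside 21.9% of all genes. The 2 JAG2KO libraries lay above all 3 Scramble libraries in 19 of 39 members and below them in 0, against 13.9% and 23.9% of all genes tested.

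The S phase genes that rose were Mcm6 and Uhrf1. Mcm6, whose promoter is printed above, had 92.7 and 90.4 CPM in the JAG2KO libraries, against 61.2, 54.7 and 64.0 CPM in the Scramble libraries, and the groups did not overlap. Its log2 fold was 0.68 ± 0.15 (adjusted p = 0.019, edgeR). Uhrf1, which carries DNA methylation through replication, had 86.3 and 63.6 CPM in the JAG2KO libraries, against 54.7, 37.2 and 45.5 CPM in the Scramble libraries, with a log2 fold of 0.79 ± 0.19 (adjusted p = 0.031, edgeR). Mcm2 missed the threshold at 0.55 ± 0.15 (adjusted p = 0.050, edgeR). The nucleotide supply genes Rrm1, Rrm2, Tyms and Tk1 had 0 calls, with Rrm2, a subunit of ribonucleotide reductase, at -0.25 ± 0.19 (adjusted p = 0.51, edgeR).

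The G2/M genes that rose were Cenpe, Cenpf, Nusap1, Kif11 and Mki67. Nusap1 had 62.9 and 57.4 CPM in the JAG2KO libraries, against 37.7, 23.8 and 35.6 CPM in the Scramble libraries, a log2 fold of 0.96 ± 0.19 (adjusted p = 0.011, edgeR). Mki67 had 186 and 240 CPM in the JAG2KO libraries, against 122, 119 and 164 CPM in the Scramble libraries, a log2 fold of 0.72 ± 0.18 (adjusted p = 0.031, edgeR). For both genes the groups did not overlap. Cenpf, a kinetochore protein, had 271 and 447 CPM in the JAG2KO libraries, against 200, 144 and 231 CPM in the Scramble libraries, and its JAG2KO values spread more widely than those of Nusap1. Its log2 fold was 0.97 ± 0.23 (adjusted p = 0.028, edgeR). Cenpe, the kinetochore motor, had a log2 fold of 0.79 ± 0.20 and Kif11 one of 0.59 ± 0.16 (adjusted p = 0.036 and 0.043, edgeR). The cyclins and kinases had 0 calls among 9, with Ccna2, the cyclin of S and G2 phases, at 0.75 ± 0.22 and Ccnb2 at -0.06 ± 0.21 (adjusted p = 0.063 and 0.91, edgeR).

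Of further cell cycle genes, 3 of 20 S phase genes and 5 of 29 G2/M genes rose in Rhox5-positive cells and 0 fell. Of all genes tested there, 2.66% rose and 4.04% fell. Ect2, a regulator of cytokinesis, had a log2 fold of 1.08 ± 0.25 and Hmgb2, a chromatin protein, one of 0.63 ± 0.15 (adjusted p = 0.023 and 0.028, edgeR). Both lost the call without JAG2KO 2 (adjusted p = 0.13 and 0.17, edgeR) and without Scramble 2, Ect2 also without Scramble 1 and Hmgb2 also without Scramble 3. Of 27 regulators of entry and exit 25 were tested and 1 (4%) rose, near the share of all genes. It was Cdkn2c, an inhibitor of cyclin D kinases, at 0.79 ± 0.20 (adjusted p = 0.034, edgeR). Cdkn2c lost the call with DESeq2 (adjusted p = 0.084), with the stricter gate, in thinned sums, in both restricted sets of cells, and without JAG2KO 2, Scramble 1 or Scramble 3. Cdkn1a, the inhibitor p21, had 317 and 234 CPM in the JAG2KO libraries, against 428, 306 and 399 CPM in the Scramble libraries, a log2 fold of -0.39 ± 0.19 (adjusted p = 0.24, edgeR). Ccnd1 and Ccnd2, cyclins of G1 phase, stood at 0.06 ± 0.14 and -0.15 ± 0.17, and the activators Foxm1 and Mybl2 at 0.33 ± 0.22 and 0.40 ± 0.23 (adjusted p = 0.86, 0.68, 0.42 and 0.34, edgeR).

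Members that missed the threshold in Rhox5-positive cells mostly stood above 0 as well. Top2a had 416 and 409 CPM in the JAG2KO libraries, against 322, 239 and 345 CPM in the Scramble libraries, and the groups did not overlap (log2 fold 0.51 ± 0.17, adjusted p = 0.097, edgeR). Ung, which removes uracil from DNA, had 10.9 and 11.7 CPM in the JAG2KO libraries, against 6.01, 7.17 and 4.98 CPM in the Scramble libraries (log2 fold 0.97 ± 0.29, adjusted p = 0.071, edgeR). Pcna had 135 and 118 CPM in the JAG2KO libraries, against 132, 108 and 121 CPM in the Scramble libraries, with overlapping groups (log2 fold 0.14 ± 0.15, adjusted p = 0.66, edgeR). Summed over the class, G2/M genes held 1.96 and 3.30 UMIs per S phase UMI in the JAG2KO libraries, against 2.16, 1.89 and 2.54 in the Scramble libraries, so JAG2KO 2 lay highest and the groups overlapped.

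The calls in Rhox5-positive cells depended on single libraries. Without JAG2KO 1 the number called was again 7, but only 3 of the 7 named genes were among them, and Mcm6, Uhrf1, Nusap1 and Kif11 lost the call. Without JAG2KO 2 there were 3 calls, with Nusap1 and Uhrf1 among them, without Scramble 1 there were 4, without Scramble 2 there was 1, Nusap1, and without Scramble 3 there were 4. Col3a1, a collagen gene, stood at 2200 and 2580 CPM in the JAG2KO libraries, against 2924, 4776 and 3022 CPM in the Scramble libraries. The macrophage gene C1qa stood at 53.1 and 37.8 CPM, against 48.1, 75.3 and 55.1 CPM, and the part of such differences in the result was not tested. In cells with fewer than 2 of 5 macrophage genes 11 members were called, 5 of the 7 among them, and Mcm6 and Uhrf1 lost the call (adjusted p = 0.081 and 0.295, edgeR). In cells without a UMI of Ptprc 6 members were called, 4 of the 7 among them, and Cenpe, Cenpf and Kif11 lost the call.

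**Figure D3:**
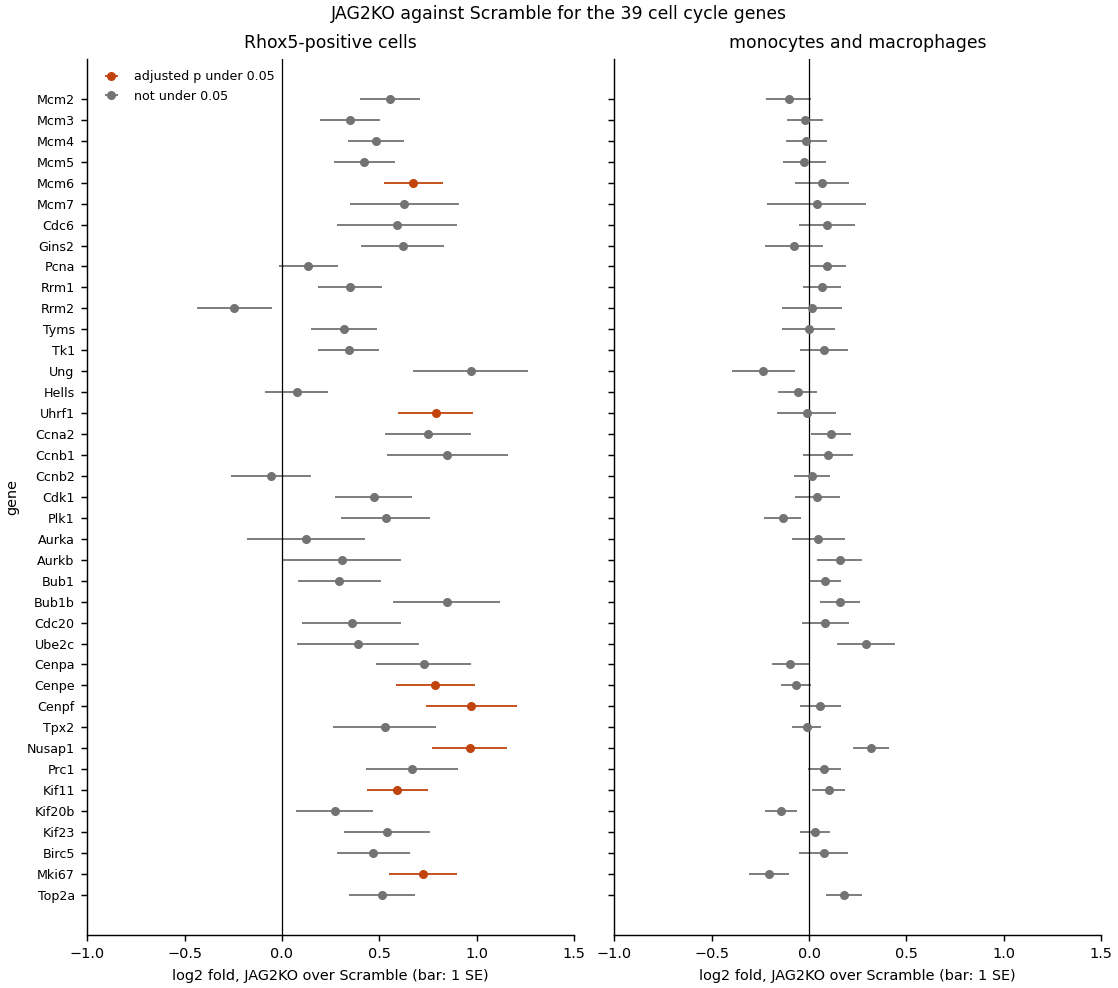
Log2 fold of JAG2KO over Scramble (x axis, bars 1 SE) for each of the 39 genes (y axis) in Rhox5-positive cells (left) and in monocytes and macrophages (right), with the genes under an adjusted p of 0.05 in orange. In Rhox5-positive cells 37 of 39 points lie to the right of 0, and in monocytes and macrophages 24 of 39.

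In monocytes and macrophages 0 of 39 members were called by edgeR and 0 by DESeq2, and 1 had an unadjusted p under 0.05, where 0.448% of the 14283 genes tested were higher, 0.511% lower and 15.9% under an unadjusted 0.05. Libraries did not overlap in 4 members above and 1 below, against 17.8% and 13.6% of all genes. The median log2 fold was 0.04 and the members ranged over -0.24 to 0.32. The member under 0.05 was Nusap1, with 32.6 and 29.5 CPM in the JAG2KO libraries, against 27.1, 23.6 and 23.0 CPM in the Scramble libraries, and a log2 fold of 0.32 ± 0.09 (adjusted p = 0.15, edgeR). Mki67 had 120 and 105 CPM in the JAG2KO libraries, against 123, 141 and 120 CPM in the Scramble libraries, with overlapping groups and a log2 fold of -0.20 ± 0.10 (adjusted p = 0.40, edgeR). Whether Mki67 moved differently in the 2 classes was tested after the data were seen, and the difference between the log2 folds of Rhox5-positive cells and of monocytes and macrophages was 0.93 ± 0.20 (adjusted p = 0.031, edgeR). It was the 1 member of 39 called, where 1% of genes were higher and 1.37% lower. An unadjusted p under 0.05 was found for 23 of 39 members, beside 15.8% of all genes, and 37 of 39 differences were above 0. Mki67 lost the call without JAG2KO 2, Scramble 1 or Scramble 2 (adjusted p = 0.175, 0.099 and 0.14, edgeR). The number of members called was 2 without JAG2KO 1, 1 without JAG2KO 2, 0 without Scramble 1, 0 without Scramble 2 and 6 without Scramble 3.

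In a test of the difference between T and NK cells and monocytes and macrophages, 0 of 39 members were called by edgeR and 0 by DESeq2, and 2 had an unadjusted p under 0.05. Over all genes 0.375% were higher, 1.07% lower and 7.7% under an unadjusted 0.05. The make-up of the T and NK class differed between the groups, with 178 and 192 CD8 T cells among 612 and 576 cells in the JAG2KO libraries, against 10, 8 and 10 among 166, 137 and 129 cells in the Scramble libraries, and the part of this in the class values was not tested. In T and NK cells 0 of 36 members tested were called by edgeR and 0 by DESeq2, where 0.117% of all genes were higher and 0.0778% lower, and 1 had an unadjusted p under 0.05, beside 5.15% of all genes. That was Kif23, with 42.0 and 47.3 CPM in the JAG2KO libraries, against 37.9, 27.4 and 25.1 CPM in the Scramble libraries, and a log2 fold of 0.59 ± 0.26 (adjusted p = 0.88, edgeR). The median over the members was -0.04, and libraries did not overlap in 2 members above and 1 below, against 6.3% and 9.68% of all genes. In dendritic cells 0 of 38 were called by edgeR and 0 by DESeq2, where 0.744% of all genes were higher and 0.5% lower, and 7 had an unadjusted p under 0.05, beside 11.7% of all genes. Libraries did not overlap in 5 members above and 0 below, against 11.1% and 14.4% of all genes. Folds were above 0 in 14 of 15 S phase genes tested, with a median of 0.39, and in 15 of 23 G2/M genes, with a median of 0.03. Summed S phase genes stood at 681 and 478 CPM in the JAG2KO libraries, against 376, 537 and 439 CPM in the Scramble libraries. JAG2KO 1 alone lay above the Scramble libraries in this sum. Mcm7, a helicase subunit, had 85.0 and 36.1 CPM in dendritic cells of the JAG2KO libraries, against 34.7, 38.2 and 35.4 CPM in those of the Scramble libraries, so that JAG2KO 1 alone stood apart. Its log2 fold was 0.85 ± 0.26 (adjusted p = 0.13, edgeR). Without JAG2KO 2 the fold was 1.25 and Mcm7 was the 1 member called, and without JAG2KO 1 it was 0.05. Migratory dendritic cells were 147 and 108 of 322 and 212 dendritic cells in the JAG2KO libraries. They were 41, 44 and 45 of 135, 141 and 165 in the Scramble libraries, and the part of this was not tested. In type 2 conventional dendritic cells G2/M genes summed to 993 and 1413 CPM in JAG2KO, against 352, 297 and 336 CPM in Scramble, from few cells. In type 1 and migratory dendritic cells these sums overlapped between the groups. In neutrophils 0 of 28 were called by edgeR and 0 by DESeq2, where 0.266% of all genes were higher and 0.12% lower, and 4 had an unadjusted p under 0.05, beside 12.6% of all genes. Libraries did not overlap in 10 members above and 0 below, against 19% and 13% of all genes. The counts behind these were small, with Cenpf at 28.8 and 32.0 CPM in the JAG2KO libraries, against 7.0, 11.7 and 7.3 CPM in the Scramble libraries, and a log2 fold of 1.69 ± 0.41 (adjusted p = 0.086, edgeR). The adjusted p of Cenpf ran from 0.016 to 0.29 over the alternatives.

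The share of cells carrying these transcripts was read after each cell was thinned to 1000 UMIs, as cells with at least 3 UMIs from at least 2 members. Cells with fewer UMIs were left out. Among monocytes and macrophages these were 62 in JAG2KO 1 and 1655 in JAG2KO 2, against 48, 139 and 50 in the Scramble libraries. Among neutrophils they were 29 of 214 and 112 of 343 in the JAG2KO libraries. The Scramble libraries lost 116 of 755, 191 of 949 and 189 of 833 neutrophils. The share of Rhox5-positive cells was 41.4% and 45.3% in the JAG2KO libraries, against 29.4%, 22.4% and 30.4% in the Scramble libraries. The groups did not overlap, but the exact 95% binomial intervals (32.9 to 50.2% in JAG2KO 1, 18.8 to 44.1% in Scramble 3) did, and they cover counting error only. Without thinning, the shares were 97.0% and 95.8% in the JAG2KO libraries, against 98.0%, 98.3% and 100% in the Scramble libraries. Neutrophils gave 3.78% and 8.66% in the JAG2KO libraries, against 1.10%, 2.37% and 1.71% in the Scramble libraries. Mature neutrophils have left the cell cycle, and this level serves below as a point of comparison only. The groups did not overlap here either, so this level was itself higher in the JAG2KO libraries. Where the UMIs in neutrophils came from was not tested.

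Among immune classes, T and NK cells had shares of 15.3% and 18.5% in the JAG2KO libraries, against 20.3%, 21.7% and 14.0% in the Scramble libraries, with overlapping groups and the difference in CD8 T cells given above. Conventional type 1 dendritic cells (cDC1), which take up dead cells and prime CD8 T cells, had 42.6% and 26.4% in the JAG2KO libraries, against 13.0%, 28.3% and 23.1% in the Scramble libraries, where JAG2KO 1 alone stood apart. Migratory dendritic cells had 2.74% and 3.85%, against 4.88%, 2.27% and 4.55%, which is near the neutrophil level. Type 2 conventional dendritic cells (cDC2) had 14.0% and 14.8% in the JAG2KO libraries (14 of 100 and 4 of 27 cells), against 7.69%, 3.13% and 9.43% in the Scramble libraries, from few cells. Ly6c2-type monocytes had 4.90% and 14.9%, against 2.36%, 4.26% and 2.50%, with JAG2KO 2 far from the other 4 libraries. In these monocytes the summed S phase genes stood at 424 and 431 CPM in JAG2KO, against 315, 352 and 246 CPM in Scramble. The summed G2/M genes stood at 671 and 615 CPM, against 377, 545 and 378 CPM. Both JAG2KO libraries lay above the Scramble libraries in both sums, which were not tested. Regulatory T cells had 22.7% and 18.2%, against 16.7%, 31.1% and 25%. Monocytes and macrophages had 13.0% and 21.0% in the JAG2KO libraries, against 14.4%, 12.0% and 11% in the Scramble libraries. The summed levels lay closer together, at 1009 and 1048 CPM of G2/M genes in the JAG2KO libraries and 1013, 990 and 942 CPM in the Scramble libraries, and at 706 and 699 CPM of S phase genes in the JAG2KO libraries and 782, 651 and 611 CPM in the Scramble libraries. In JAG2KO 2 the monocytes and macrophages with member UMIs had a median of 2548 UMIs, against 4279 in those without, whereas in the other 4 libraries those with member UMIs were deeper (13788 to 14504 UMIs, against 8365 to 9071). No order is read from the JAG2KO 2 share.

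**Figure D4:**
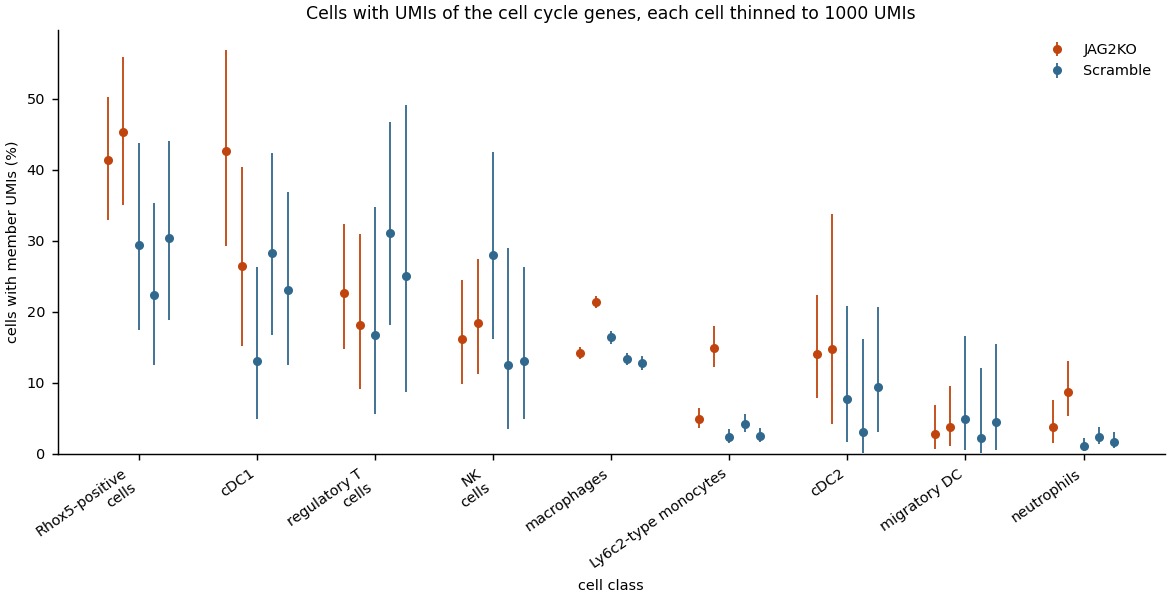
Share of cells with at least 3 UMIs from at least 2 of the 39 genes after thinning each cell to 1000 UMIs (y axis, percent), by class (x axis) and library, JAG2KO in orange and Scramble in blue, with exact 95% binomial intervals for libraries with at least 20 cells. Rhox5-positive cells of the JAG2KO libraries, at 41.4% and 45.3%, lie above those of the Scramble libraries, and neutrophils and migratory dendritic cells lie near the bottom.

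Within macrophages the share differed with what else a cell expressed. These marker genes were chosen with the data in view and the differences were not tested. Macrophages with at least 2 UMIs of Arg1, arginase, had a lower share than those with none in all 5 libraries, by -9.5 and -8.6 percentage points in the JAG2KO libraries and -12.5, -9.4 and -9.0 points in the Scramble libraries. Macrophages with Fcrls had a higher share in all 5, by 6.8 and 7.5 points in the JAG2KO libraries and 12.8, 11.1 and 13.9 points in the Scramble libraries, and they were deeper cells than those without Fcrls in each library. Macrophages with H2-Ab1, an MHC class II gene, had a lower share in 4 of 5 libraries and in JAG2KO 2 a higher one, by 2.0 points. They were shallower cells than those without H2-Ab1 in all 5 libraries, with medians of 2990 against 5970 UMIs in JAG2KO 2 and 6761 against 10954 UMIs in Scramble 1.

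**Figure D5:**
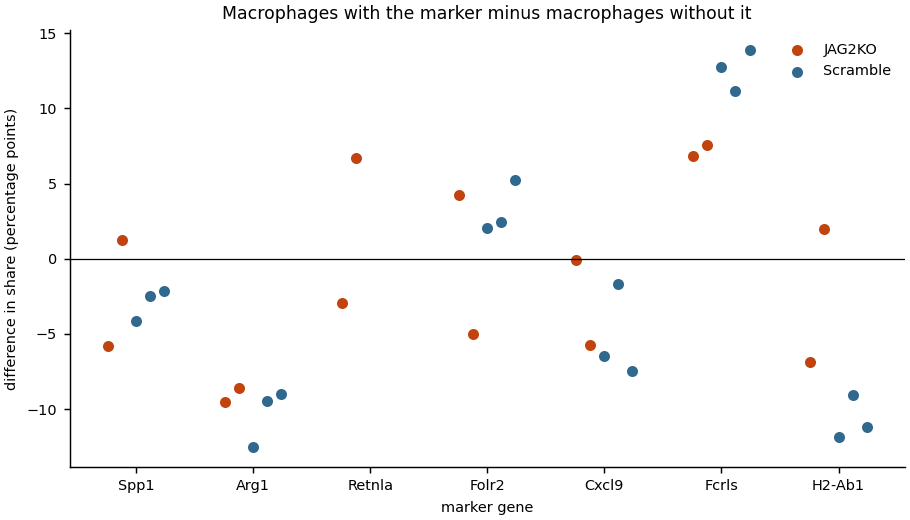
Share of macrophages with member UMIs among cells with at least 2 UMIs of a marker minus that among cells with none (y axis, percentage points), for 7 markers (x axis), in JAG2KO (orange) and Scramble (blue) libraries with at least 20 such cells. Arg1 lies below 0 and Fcrls above 0 in all 5 libraries.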

How the data were processed

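Each deposited matrix gives UMI counts that were not normalized, made by the authors with cellranger 6.0.0 per the file headers. The submitters' processing notes name Seurat, GRCm38 and mm10 without their roles, and per the labels barcodes without a cell had been removed. A cell was kept if it reached 500 UMIs and 250 genes and no more than 10% of its UMIs were mitochondrial, and the 8% of cells per library with the highest Scrublet-type doublet score were removed. Classes were gated by marker genes, with no clustering. UMIs were summed per class and library (at least 20 cells) and tested with edgeR 4.0.16 (TMM, filterByExpr, quasi-likelihood, Benjamini-Hochberg over all genes, threshold 0.05) in R 4.3.3, with DESeq2 1.42.0 as an alternative. JAG2KO was set against Scramble without a replicate block, and cell classes with the library as a block. CPM values divide by the total of the summed class, without TMM scaling. The members, lists and markers were chosen with earlier results of these data known. All 39 members could be named, and of the wider lists up to 4 genes with the smallest adjusted p in each comparison, with Cdkn1a, Ccnd1, Ccnd2, Foxm1 and Mybl2 in any case. The tests were checked on simulated sums with known folds and recovered only part of the changes, so genes without a call may still have changed. In Rhox5-positive cells 13 of 67 genes changed 1.5-fold and 37 of 67 changed 2-fold were called, with 17 false calls. In T and NK cells these were 10 and 33 of 67, with 10 false calls. In monocytes and macrophages they were 25 and 44 of 67, with 16 false calls. Promoter windows come from RefSeq.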

Additional observations from a re-analysis of the deposited data

Results flagged for a closer look

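The response of 5 genes to JAG2KO differed between cell classes by a test of the difference itself (edgeR). Between Rhox5-positive cells and monocytes and macrophages, the difference of log2 folds was 0.93 for Mki67, 0.98 for Cdkn2c and -1.10 for Tob1, an antiproliferative gene (adjusted p = 0.031, 0.039 and 0.042). Between T and NK cells and monocytes and macrophages it was 0.66 for Ccnd2 and 0.62 for Btg2, an antiproliferative gene (adjusted p = 0.0011 and 0.0060). Over all genes tested, 1% were higher and 1.37% lower in the first test, and 0.375% and 1.07% in the second. The first test called 1 of 39 members, and of 27 regulators 1 in each direction. The second called 0 of 39 members and 2 of 27 regulators. No result about the lists is read from so few calls. Each of the 5 lost the call in some settings. With single libraries left out, Mki67 lost it in 3 of 5 cases, Cdkn2c in 4, Tob1 in 4, Ccnd2 in 3 and Btg2 in 4. With DESeq2 the adjusted p was 0.23 for Ccnd2 and 0.74 for Btg2. Ccnd2 had 53.9 and 44.7 CPM in monocytes and macrophages of the JAG2KO libraries, against 78.1, 78.2 and 67.9 CPM in those of the Scramble libraries.

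In 4 sets of cells outside the compared classes, JAG2KO libraries with at least 20 cells had a share with member UMIs above that of each Scramble library that held such cells. Endothelial cells of JAG2KO 2 had a share of 61.4% (35 of 57 cells), with 0 of 2 in JAG2KO 1 and 0 of 3 and 0 of 1 in Scramble 1 and 2. Fibroblasts without Rhox5 had 44.4% in JAG2KO 2 (16 of 36 cells), with 1 of 15 in JAG2KO 1 and 0 of 3 and 0 of 2 in Scramble 2 and 3. Cells that passed no gate had 16.2% and 26.8% in the JAG2KO libraries, against 6.13%, 7.83% and 5% in the Scramble libraries. Many of these were too shallow and left out, 303 of 711 and 2084 of 3496 in the JAG2KO libraries. In the Scramble libraries 171 of 481, 297 of 578 and 182 of 462 were left out. Cells that passed several gates had 28.1% and 31.1%, against 23.7%, 26.1% and 15.3%.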

How the results depend on the processing

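Of the 653 values of named genes under the alternatives, 521 kept their direction and their side of the threshold, 110 lost the call, 15 gained one and 7 changed sign. The number of members called in Rhox5-positive cells was 7 as reported, 21 without the filter on low counts, 13 at no more than 5% mitochondrial UMIs, 11 in cells with fewer than 2 macrophage genes (chosen after seeing the data), and 1 to 7 with single libraries left out, where 1 to 4 of the 7 genes reported kept their calls. With the replicate block it was 12, and the block changed no other count of members called, though Cdkn2c and Hmgb2 lost their calls there (adjusted p = 0.070 and 0.091, edgeR). The replicate numbers were not shown to pair the libraries, with correlations of -0.04 and 0.19 for numbers 1 and 2. Without the filter 1 member was called in neutrophils and 1 in dendritic cells, and leaving out single libraries gave 0 to 1 in dendritic cells. Dendritic cells against monocytes and macrophages gave 12 calls with DESeq2 and 13 in thinned sums, and neutrophils 21 in thinned sums. The difference between Rhox5-positive cells and monocytes and macrophages gave 0 to 6 calls with single libraries left out. The share of cells as a fold of JAG2KO over Scramble was 0.84 in monocytes and macrophages, 0.84 in dendritic cells and 0.98 in Rhox5-positive cells without thinning, beside 1.36, 1.14 and 1.58, and 9.17 in neutrophils with at least 5 UMIs from at least 3 members, beside 3.60. Signs changed in single settings for Ccnd1 and Ccnd2 in Rhox5-positive cells, which ran from -0.028 to 0.14 and from -0.46 to 0.11 with single libraries left out. Pcna changed sign in thinned T and NK sums (0.041), and Cenpa in neutrophils with DESeq2 (0.16), with doublets kept (0.023) and from -0.049 to 0.065 with single libraries left out. The cause of these changes was not tested. Cells removed as doublets had a higher share with member UMIs than kept cells in all 5 libraries.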
